A study of Homo sapiens with 54 samples.

Results

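Metallothioneins, the zinc sensor MTF1 and the zinc transporters SLC30A1 and SLC39A1 were examined in xenografts of LNCaP, a human prostate cancer cell line. The 9 genes were chosen by symbol: MT1E, MT1F, MT1G, MT1M, MT1X, MT2A, MTF1, SLC30A1 and SLC39A1. All 9 were found among the 60642 gene symbols of the expression table, and the rule that chose them uses no measured value, although earlier results of these data were known when it was set. Of the 6 metallothioneins 4 were expressed, and of all 9 members 7 reached 1 TPM in at least 8 of the 54 tumours. TPM is a relative transcript abundance, scaled by transcript length to a total of 1000000 per library, so levels of different genes in TPM can be set side by side.

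RNA-seq was carried out on 54 subcutaneous tumours, each in its own male NOD-SCID mouse, a host without a working adaptive immune system. PRE-CX tumours (n = 9) came from mice with mock surgery and intact testes. POST-CX tumours (n = 8) were taken after castration, at the low point of serum prostate-specific antigen, and CRPC tumours (n = 10) after the antigen or the tumour had grown back without testicular androgen. The enzalutamide groups were castrated mice that also received the antiandrogen drug enzalutamide (ENZ) at 10 mg/kg by mouth once the antigen rose again. ENZS tumours (n = 12) were taken while they responded to the drug and ENZR tumours (n = 15) after relapse on it. All tumours descend from 1 cell line, carry no engineered allele and have stroma of mouse origin, so the spread between them is the spread between mice. Each tumour is a bulk sample, in which fewer cells of a type and less RNA per cell cannot be told apart.

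Metallothioneins are small cysteine-rich proteins that bind zinc and copper and also take up cadmium and reactive oxygen. When zinc rises in the cytosol, the zinc finger factor MTF1 binds short metal response elements in the metallothionein genes and in SLC30A1 and switches them on, so these transcripts serve as a readout of free zinc. Glucocorticoid, hypoxia and oxidative stress are also known inducers of metallothioneins, and normal prostate epithelium is known for storing large amounts of zinc, which is lost in prostate cancer.

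The members lie in a tight cluster and at scattered loci. In the RefSeq annotation of GRCh38.p14, all 6 metallothioneins are protein-coding genes on chromosome 16, from the start of MT2A at 56608584 to the end of MT1X at 56684196. Between them lie MT1E (56625781 to 56627112), MT1M (56632659 to 56633981), MT1F (56657959 to 56659303) and MT1G (56666730 to 56668065). MTF1 (37809574 to 37859592), SLC39A1 (153959110 to 153968184) and SLC30A1 (211571568 to 211579161) lie on chromosome 1. RefSeq promoter windows, 250 bases before to 50 bases after the transcription start, were at hand for 5 of the 9 members. They are shown for the MTF1 target genes with expression data here, with the core of the metal response element (TGCACNC or TGCGCNC, N being any base, on either strand, overlapping matches counted separately) in capitals. The windows are written 5′ to 3′ on the strand of the gene, at chr16:56608334-56608633 (plus strand) for MT2A, chr16:56682220-56682519 (plus strand) for MT1X and chr1:211579112-211579411 (minus strand) for SLC30A1.
MT2A: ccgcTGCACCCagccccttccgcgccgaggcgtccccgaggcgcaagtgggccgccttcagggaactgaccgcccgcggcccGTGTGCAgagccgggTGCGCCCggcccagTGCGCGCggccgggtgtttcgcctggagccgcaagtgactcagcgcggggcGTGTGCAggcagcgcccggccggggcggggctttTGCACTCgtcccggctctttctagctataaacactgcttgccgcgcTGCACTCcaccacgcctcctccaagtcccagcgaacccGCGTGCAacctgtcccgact
MT1X: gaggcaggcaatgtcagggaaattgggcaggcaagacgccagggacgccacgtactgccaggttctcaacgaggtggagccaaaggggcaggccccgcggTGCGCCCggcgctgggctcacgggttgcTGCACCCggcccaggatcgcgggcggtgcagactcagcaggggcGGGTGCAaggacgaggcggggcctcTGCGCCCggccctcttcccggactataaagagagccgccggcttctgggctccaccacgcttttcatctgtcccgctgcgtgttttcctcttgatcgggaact
SLC30A1: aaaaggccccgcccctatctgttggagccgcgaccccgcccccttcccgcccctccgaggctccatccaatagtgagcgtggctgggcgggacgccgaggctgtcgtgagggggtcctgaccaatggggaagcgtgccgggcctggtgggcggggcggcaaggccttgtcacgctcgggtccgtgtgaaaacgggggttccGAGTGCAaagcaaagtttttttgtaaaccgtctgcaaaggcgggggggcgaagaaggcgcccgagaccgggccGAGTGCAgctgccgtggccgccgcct
The MT2A window held 8 matches to the core, 5 of them on the strand of the gene. The MT1X window held 4 matches and the SLC30A1 window 2. Among all 35116 windows of 300 bases, 29.6% held at least 1 match, 8.6% at least 2, 0.601% at least 4 and 0.0199% at least 8. The MTF1 window held 0 matches, and of the 2 windows of SLC39A1, the ubiquitous zinc importer ZIP1, 1 held 1 match. These matches describe letters in the reference sequence and were not tested for binding.

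The prostate epithelial identity of the tumours was checked on 5 markers, including KLK3, KRT8 and KRT18, and the median of each was at least 1 TPM in all 5 groups. Human gene TPM summed to 12.1% to 97.5% of 1000000 per tumour (median 89.9%), the rest belonging to mouse genes that were removed from the table. The 4 lowest sums were those of ENZR mouse 87, POST-CX mouse 91, POST-CX mouse 48 and ENZR mouse 103. Some, but not all, of the results that may rest on them are given with and without them. The summed TPM of 7 stromal markers of human symbol ran from 5.85 to 14.4 in PRE-CX, 6.10 to 28.1 in POST-CX, 12.0 to 92.3 in CRPC, 17.6 to 235 in ENZS and 6.25 to 78.4 in ENZR tumours. This sum was higher in the ENZS tumours than in any PRE-CX tumour, and its part in the results below was not tested. Endothelial (4 genes) and leukocyte (7 genes) markers summed to at most 7.31 and 10.9 TPM in any tumour.

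The most abundant member was MT2A, the main metallothionein of most human tissues, with a mean of 303 TPM over the 54 tumours, rank 333 among the 17131 genes tested. MT1G (147 TPM), MT1X (127 TPM) and MT1F (49.6 TPM) followed. MT1M was listed at 0 in all 54 tumours and MT1E in 53, the exception being 0.30 TPM in ENZR mouse 103. None of 19 housekeeping genes checked was at 0 in any tumour. A 2-sided exact permutation test of MT1E gave p = 1 for ENZR against PRE-CX, and resampling gave p = 1 for ENZR against ENZS, with no other comparison holding a value above 0. Metallothionein genes and their pseudogenes are nearly identical in sequence, so the division of shared reads between them by the quantification is uncertain, and so is the level of each single copy.

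MT2A was lowest after castration and highest in tumours responding to enzalutamide, but the groups overlapped. Its level ran from 175 to 600 TPM in PRE-CX tumours with a median of 248. In POST-CX tumours it ran from 22.8 to 279 TPM with a median of 161, and in CRPC tumours from 133 to 498 TPM with a median of 249.3. ENZS tumours spanned 65.8 to 982 TPM (median 383) and ENZR tumours 9.85 to 747 TPM (median 293). In all, 4 of the 8 POST-CX tumours lay under the lowest PRE-CX tumour, and the 2 lowest of them were mice 91 and 48, which also had low human totals.

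MT1G, an inducible metallothionein, stood highest in intact tumours. It ran from 109 to 424 TPM in PRE-CX tumours (median 194), and from 10.2 to 158 TPM in POST-CX tumours (median 88.2). CRPC tumours held 93.2 to 294 TPM (median 140), ENZS tumours 10.8 to 488 TPM (median 152) and ENZR tumours 1.45 to 240 TPM (median 102). All 8 POST-CX tumours were below the PRE-CX median and 5 were below the lowest PRE-CX tumour.

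MT1X, a broadly expressed member of the cluster, ran from 92.9 to 250 TPM in PRE-CX (median 134) and from 7.65 to 99.5 TPM in POST-CX tumours (median 62.4). In CRPC it ran from 66.0 to 266 TPM (median 95.8), in ENZS from 37.0 to 436 TPM (median 155) and in ENZR from 1.94 to 281 TPM (median 108). Of the 8 POST-CX tumours 6 were below every PRE-CX tumour. MT1F had the lowest level of the 4 and the same order at its ends, with medians of 49.7 TPM in PRE-CX, 25.8 in POST-CX, 46.2 in CRPC, 62.5 in ENZS and 47.5 in ENZR tumours. Its range was 25.8 to 119 TPM in PRE-CX and 5.96 to 44.1 TPM in POST-CX, and it reached 86.0 in CRPC, 122 in ENZS and 135 TPM in ENZR tumours.

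**Figure D1:**
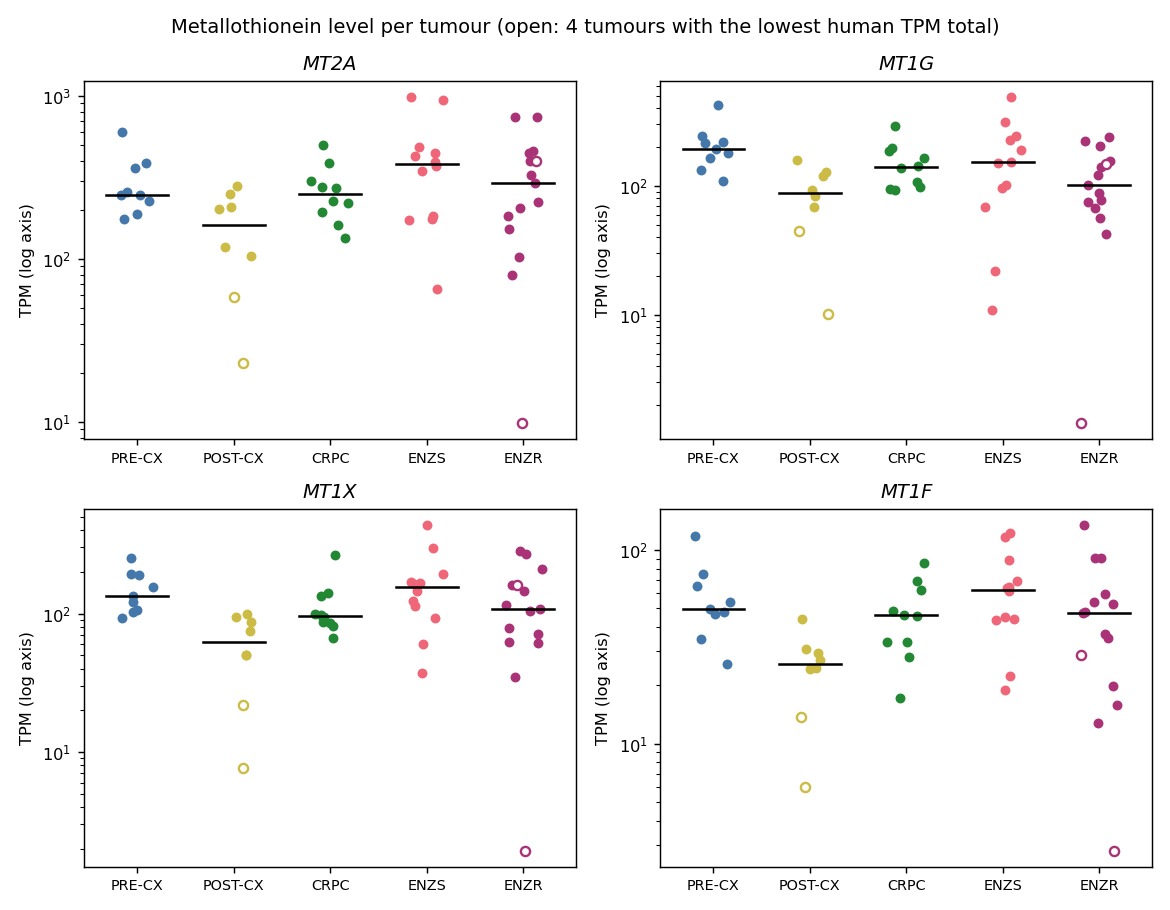
TPM of MT2A, MT1G, MT1X and MT1F (log axis) in each of the 54 tumours by group. Bars are group medians, and open circles are the 4 tumours with the lowest human TPM total. POST-CX medians are the lowest of the 5 groups for each of the 4 genes.

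SLC30A1, the plasma membrane exporter ZnT1 that lowers cytosolic zinc, was the only member to pass the test in 1 of the 7 main comparisons. Its level ran from 9.41 to 22.7 TPM in PRE-CX tumours with a median of 12.7. The other groups spanned 5.77 to 20.6 TPM in POST-CX (median 13.2), 11.9 to 23.9 in CRPC (median 16.6), 15.5 to 36.1 in ENZS (median 23.1) and 1.02 to 50.2 in ENZR (median 19.4). All 12 ENZS tumours were above the PRE-CX median and 6 were above the highest PRE-CX tumour.

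SLC39A1 and MTF1 varied least. SLC39A1, which brings zinc into the cell, ran from 45.6 to 63.9 TPM in PRE-CX (median 59.2), 19.4 to 63.7 in POST-CX (median 54.8), 41.3 to 66.0 in CRPC (median 48.2), 48.2 to 74.4 in ENZS (median 64.8) and 8.69 to 84.7 in ENZR tumours (median 54.8). MTF1 was a low transcript, with medians of 5.42 TPM in PRE-CX, 5.06 in POST-CX, 4.56 in CRPC, 5.47 in ENZS and 5.82 in ENZR, and a range of 0.70 to 8.69 TPM over all tumours. Its lowest value was again in ENZR mouse 87, whose human TPM sum was 12.1% of 1000000. With each tumour rescaled to a human sum of 1000000, MTF1 ran from 3.20 to 11.04 and its lowest value was in a CRPC tumour.

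**Figure D2:**
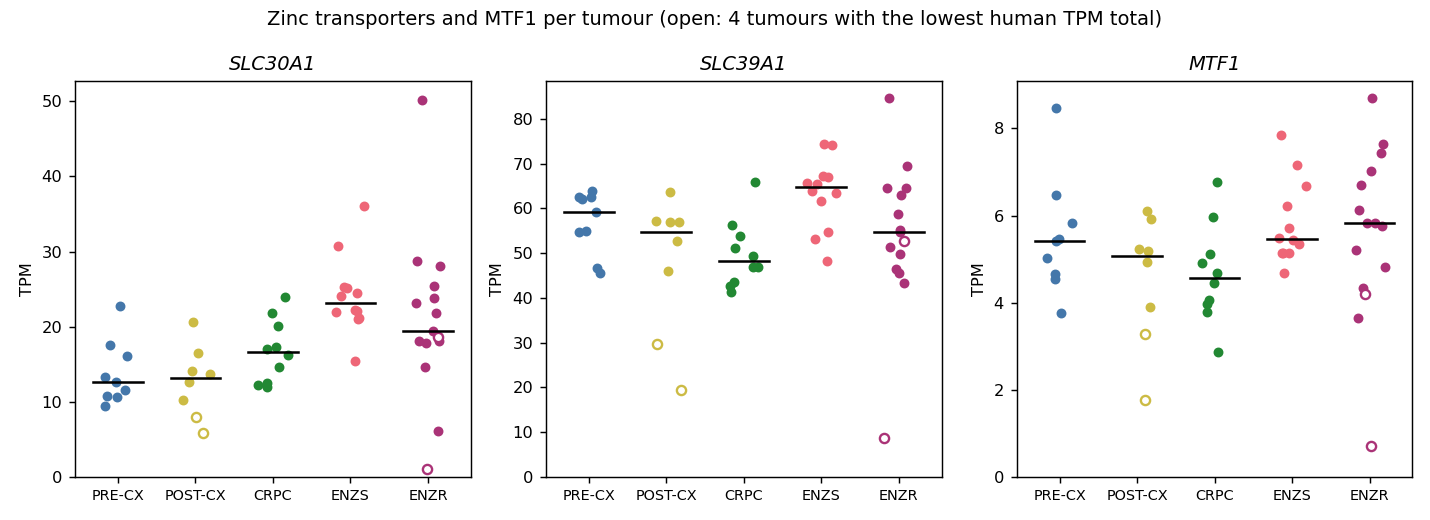
TPM of SLC30A1, SLC39A1 and MTF1 in each of the 54 tumours by group. Bars are group medians, and open circles are the 4 tumours with the lowest human TPM total. For SLC30A1 the 12 ENZS tumours lie above the PRE-CX median of 12.7 TPM.

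The members shared the ends of the order of group means more than its middle. Of the 7 expressed members, 7 had their lowest mean TPM in POST-CX and 6 their highest in ENZS, MT1G being highest in PRE-CX, but with TPM rescaled these counts were 4 and 5. For MT2A the means ran from 155 ± 92.8 TPM in POST-CX through 267 ± 109 in CRPC, 299 ± 133 in PRE-CX and 318 ± 220.5 in ENZR to 417 ± 288 in ENZS (SD, n = 8, 10, 9, 15 and 12). For SLC30A1 they ran from 12.7 ± 4.74 in POST-CX and 13.9 ± 4.24 in PRE-CX through 16.8 ± 4.15 in CRPC and 21.0 ± 10.998 in ENZR to 24.1 ± 5.17 in ENZS. In none of the 28 pairs of neighbouring groups in these orders did limma with Benjamini-Hochberg adjustment give an adjusted p under 0.05. The orders are of mean TPM, while limma compares means of log2(TPM + 1), and some pairs differ in sign between these scales. MT2A had a higher mean TPM in ENZR than in PRE-CX but a log2 difference of -0.30. The mean log2(TPM + 1) of MT1X was highest in PRE-CX, at 7.16 beside 7.12 in ENZS.

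The first comparison asked how these genes stood after castration. All 4 metallothioneins were lower in POST-CX than in PRE-CX tumours on the log2(TPM + 1) scale, with differences of -1.55 ± 0.50 for MT1X, -1.45 ± 0.57 for MT1G, -1.22 ± 0.43 for MT1F and -1.18 ± 0.51 for MT2A (here and below, ± SE). With limma fitted over 17131 genes, the adjusted p values were 0.0643, 0.147, 0.0923 and 0.201, so 0 of 9 members passed in either direction. Over all genes tested, 1.66% passed as higher and 2.67% as lower in POST-CX. The calls turned on the scaling and the groups in the fit. With TPM rescaled to the human total, MT1X (-1.30, adjusted p = 0.0165) and MT1F (-0.97, adjusted p = 0.0413) fell. Centred on tumour medians, all 4 fell together with SLC39A1 (-0.28, adjusted p = 0.0306), and with only the 2 groups in the fit MT1F, MT1G and MT1X did. Without POST-CX mouse 91 and ENZR mouse 87, MT1X alone fell (-1.19, adjusted p = 0.0216). Over all genes, 989 of 17593 passed as lower with TPM rescaled and 2306 of 17131 with centring. With only the 2 groups these were 539 of 17131, and without mice 91 and 87 they were 747 of 17127. Without the 4 tumours of low human total the differences were -0.95 for MT1X (adjusted p = 0.0532), -0.90 for MT1G (adjusted p = 0.153), -0.82 for MT1F (adjusted p = 0.105) and -0.61 for MT2A (adjusted p = 0.292). SLC30A1 differed by -0.15 ± 0.31 with an adjusted p of 0.846, and its 95% interval ran from -0.77 to 0.46. MTF1 (-0.26 ± 0.21) and SLC39A1 (-0.33 ± 0.23) did not pass either.

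The same 4 metallothioneins had smaller negative estimates against PRE-CX in castration-resistant than in POST-CX tumours. CRPC minus PRE-CX differences on the log2(TPM + 1) scale were -0.16 ± 0.48 for MT2A, -0.29 ± 0.40 for MT1F, -0.42 ± 0.48 for MT1X and -0.46 ± 0.54 for MT1G. The 95% intervals were as wide as -1.12 to 0.80 for MT2A and -1.53 to 0.62 for MT1G. Below the PRE-CX median were 8 of 10 CRPC tumours in MT1G and in MT1X, 7 in MT1F and 5 in MT2A. Below the lowest PRE-CX tumour were 4 in MT1G and in MT1X, 2 in MT2A and 1 in MT1F, while 1 in MT1X exceeded every PRE-CX tumour. No member passed, against 5.55% of all genes higher and 1.87% lower. With tumours centred on their medians, MTF1 (-0.32, adjusted p = 0.0118) and SLC39A1 (-0.31, adjusted p = 0.0113) fell. In that fit 1624 of 17131 genes passed as lower. Set directly against POST-CX tumours, CRPC tumours had 1.13 ± 0.49 more MT1X, 1.02 ± 0.50 more MT2A, 0.996 ± 0.55 more MT1G and 0.92 ± 0.41 more MT1F on that scale, each with an adjusted p of 0.709. Here 0% of all genes passed as higher and 0% as lower with limma, although 1154 had an unadjusted p under 0.05. With TPM rescaled the differences were smaller, at 0.84 for MT1X, 0.71 for MT2A, 0.70 for MT1G and 0.64 for MT1F. No member passed with that scaling or without the 4 tumours of low human total. All 10 CRPC tumours were above the POST-CX median in MT1G and in MT1X.

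Tumours responding to enzalutamide carried more SLC30A1 than intact tumours. The ENZS minus PRE-CX difference was 0.78 ± 0.28 on the log2(TPM + 1) scale (limma adjusted p = 0.0227, 95% interval 0.22 to 1.34), a 1.71-fold ratio, and SLC30A1 was the 1 member of 9 that passed. Of all 17131 genes, 30.3% passed as higher and 8.18% as lower in this comparison, and the median difference of all genes was 0.26. A share of 1 in the 7 members tested is thus below the share of all genes called. The adjusted p of SLC30A1 ran from 6.27e-05 to 0.0418 over the 8 other fits, and the call was lost where a log2 difference of at least 1 was also asked. The log2 difference of SLC30A1 was 0.82 with TPM rescaled and 0.52 with tumours centred on their medians. MT2A (0.25 ± 0.46), MT1F (0.07 ± 0.39), MT1X (-0.04 ± 0.46), MTF1 (0.08 ± 0.19) and SLC39A1 (0.15 ± 0.21) did not pass, nor did MT1G, which was the 1 metallothionein with a sizeable negative value (-0.73 ± 0.51, adjusted p = 0.263).

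Enzalutamide was begun as the antigen started to rise after castration, and ENZS was also set against CRPC. CRPC tumours were taken once the antigen was back at its level before castration or the tumour had reached its size limit. They need not match the state of the tumours at the start of the drug. SLC30A1 was 0.51 ± 0.27 higher (adjusted p = 0.257) and SLC39A1 0.34 ± 0.20 higher (adjusted p = 0.32), neither passing, while 6.21% of all genes passed as higher and 2.71% as lower. In each of both transporters 11 of 12 ENZS tumours were above the CRPC median. The calls changed with tumours outside the comparison, which share its estimate of the spread. Without POST-CX mouse 91 and ENZR mouse 87 both rose, SLC30A1 with an adjusted p of 0.0338 and SLC39A1 of 0.0126. In that fit 3345 of 17127 genes passed as higher. With TPM rescaled SLC39A1 rose by 0.42 (adjusted p = 0.00172), SLC30A1 by 0.58 (adjusted p = 0.0205) and MTF1 by 0.36 (adjusted p = 0.0115). Beside them, 5519 of 17593 genes passed as higher with that scaling. With tumours centred on their medians none of the 3 passed, at 0.21 for SLC39A1 (adjusted p = 0.0708), 0.37 for SLC30A1 (adjusted p = 0.12) and 0.15 for MTF1 (adjusted p = 0.222).

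After relapse on enzalutamide no member differed from PRE-CX past the threshold. MT1G came closest, at -1.19 ± 0.49 on the log2(TPM + 1) scale (adjusted p = 0.0606). Of the 15 ENZR tumours 12 were below the PRE-CX median of MT1G and 8 were below the lowest PRE-CX tumour. It fell with TPM rescaled (-0.98, adjusted p = 0.0446) and with tumours centred on their medians (-1.24, adjusted p = 0.0117). Beside it, 2427 of 17593 and 4474 of 17131 genes passed as lower in these fits, in that order. MT1G did not pass without POST-CX mouse 91 and ENZR mouse 87 (adjusted p = 0.0632) or with only the groups compared in the fit (adjusted p = 0.0689). SLC30A1 was 0.36 ± 0.27 higher (adjusted p = 0.329), and 13 of 15 ENZR tumours were above the PRE-CX median. It rose without POST-CX mouse 91 and ENZR mouse 87 (0.59, adjusted p = 0.00627) and with TPM rescaled (0.56, adjusted p = 0.0153). Beside it, 6702 of 17127 and 7847 of 17593 genes passed as higher in these fits, in that order. SLC30A1 did not pass with tumours centred on their medians (0.31, adjusted p = 0.136) or with only the groups compared in the fit (adjusted p = 0.499). In the main fit 17.6% of all genes passed as higher and 11.5% as lower. ENZR minus ENZS differences ran from -0.64 ± 0.40 for MT1X to -0.13 ± 0.16 for MTF1, with no member passing and a median of -0.19 over all genes. With TPM rescaled they ran from -0.46 for MT1X to 0.01 for MTF1. The background there was 0% higher and 0.0175% lower.

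The groups at the ends of most of these orders were also set against each other. ENZS and POST-CX are not neighbours in the order and not 1 of the 7 main comparisons. The pair was read after the values were seen, and its adjusted p values correct over genes and not for this choice. MT1X was higher in ENZS by 1.51 ± 0.47 (adjusted p = 0.0185), MT2A by 1.43 ± 0.48 (adjusted p = 0.028), MT1F by 1.29 ± 0.40 (adjusted p = 0.0176) and SLC30A1 by 0.93 ± 0.29 (adjusted p = 0.0177). In SLC30A1 11 of 12 ENZS tumours exceeded every POST-CX tumour, 9 did so in MT1X and 8 in MT2A. Of all genes 17.8% passed as higher and 1.89% as lower, beside 4 of the 7 members tested passing as higher. The 3 metallothionein calls were lost without the 4 tumours of low human total, where MT1X was 0.91 (adjusted p = 0.0543), MT1F 0.89 (adjusted p = 0.0682) and MT2A 0.86 (adjusted p = 0.121). The MT2A call was also lost with no filter on low genes (adjusted p = 0.0653). SLC30A1 kept its call without the 4 tumours, at 0.69 (adjusted p = 0.0147). MT1G, at 0.72 ± 0.53, did not pass.

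**Figure D3:**
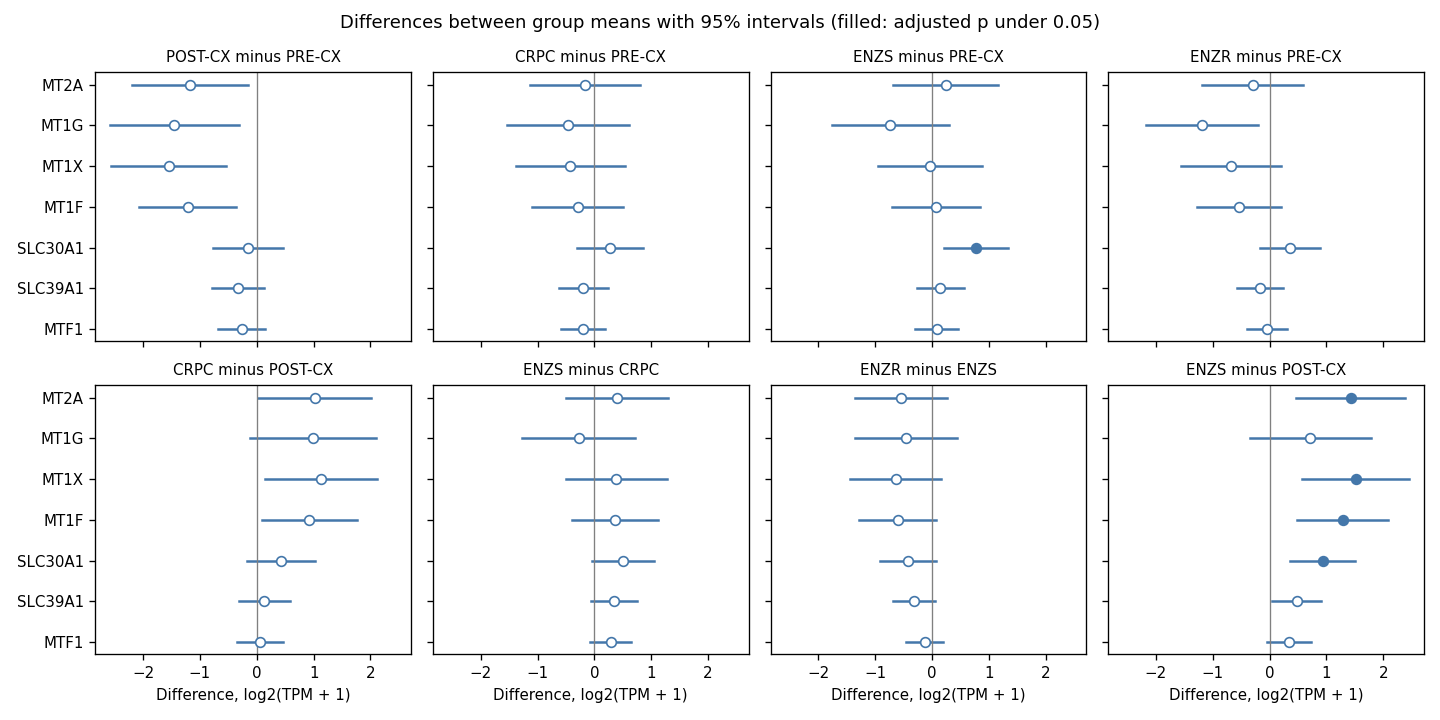
Differences between group means of the 7 expressed members on the log2(TPM + 1) scale, with 95% intervals, for the 7 main comparisons and for ENZS minus POST-CX. Filled points passed at an adjusted p under 0.05: SLC30A1 in ENZS minus PRE-CX, and MT2A, MT1X, MT1F and SLC30A1 in ENZS minus POST-CX. The pair ENZS minus POST-CX was chosen after the values were seen, which its adjusted p values do not correct for.

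Both relapse steps were also compared with each other, as the difference ENZR minus ENZS less the difference CRPC minus POST-CX. The estimates were -1.77 ± 0.64 for MT1X, -1.57 ± 0.64 for MT2A, -1.52 ± 0.54 for MT1F and -1.45 ± 0.71 for MT1G. No member passed, the lowest adjusted p being 0.159 for MT1F, and 0% of all genes passed as higher and 0.187% as lower. The estimate for SLC39A1 (-0.45 ± 0.29) turned to 0.05 and that for MTF1 (-0.19 ± 0.26) to 0.20 with TPM rescaled.

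The makeup of the metallothionein pool shifted with treatment, a measure that is the same with deposited and with rescaled TPM. The share of each gene in the summed TPM of MT1F, MT1G, MT1X and MT2A was taken within each tumour, a measure chosen after the values were seen. MT1G made up 25.0% to 33.6% of the sum in PRE-CX tumours (median 29.3%), 21.9% to 32.2% in POST-CX (median 26.6%) and 22.3% to 28.6% in CRPC tumours (median 26.5%). In ENZS tumours it made up 3.94% to 25.8% (median 19.8%) and in ENZR tumours 9.04% to 26.9% (median 20.1%). All 12 ENZS and all 15 ENZR tumours were below the PRE-CX median, and 11 of 12 and 13 of 15 were below the lowest PRE-CX tumour. Tumours of low human total lay at several extremes, ENZR mouse 87 having the lowest MT1G share of its group, POST-CX mouse 91 the lowest of its group and POST-CX mouse 48 the highest.

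The share of MT2A ran the other way. It was 35.9% to 44.5% in PRE-CX (median 41.6%), 39.2% to 51.4% in POST-CX (median 47.5%) and 40.9% to 51.4% in CRPC tumours (median 45.9%). It reached 42.2% to 67.2% in ENZS (median 49.3%) and 40.5% to 64.3% in ENZR tumours (median 52.1%). The shares of MT1X and MT1F had medians of 18.8% to 22.1% and of 8.24% to 8.67% over the 5 groups.

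Over 28 tests (4 genes, 7 comparisons) the share of MT1G was lower in ENZS than in PRE-CX, with a difference of mean shares of -9.92 percentage points (2-sided exact permutation test, p = 7.48e-05, adjusted p = 0.00105). In ENZR minus PRE-CX the difference was -9.68 points (exact p = 1.53e-05, adjusted p = 0.000428). Against CRPC the ENZS share differed by -6.97 points (permutation test with 100000 resamples, p = 0.00086, adjusted p = 0.0052), and CRPC against PRE-CX by -2.94 (exact p = 0.0127, adjusted p = 0.0394). ENZR and ENZS differed by 0.24 points (permutation p = 0.911, adjusted p = 0.97). The MT2A share was 9.18 points higher in ENZS (exact p = 0.000929, adjusted p = 0.0052) and 10.2 points higher in ENZR than in PRE-CX (exact p = 0.000253, adjusted p = 0.00236). It was already 4.91 points higher in POST-CX (exact p = 0.0109, adjusted p = 0.0382) and 4.39 points higher in CRPC (exact p = 0.00657, adjusted p = 0.0263). The MT1X share was lower in POST-CX than in PRE-CX (-3.26 points, exact p = 0.0042, adjusted p = 0.0196), and no share of MT1F differed past the threshold. Mice 48 and 91, of low human total, held the lowest POST-CX shares of MT1X (15.8% and 16.4%), and the MT1X test was not repeated without them. Without the 4 tumours of low human total, the ENZR minus PRE-CX differences were -8.92 points for MT1G and 9.30 for MT2A (exact p = 2.41e-05 and 0.000482). The POST-CX minus PRE-CX difference for MT2A was then 5.21 points (exact permutation p = 0.0126, not adjusted). The shares are fractions of 1 sum, so they are not independent of each other, and how the quantification divided reads common to MT1G and the other human copies, or to the mouse metallothioneins of the combined reference, was not tested.

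**Figure D4:**
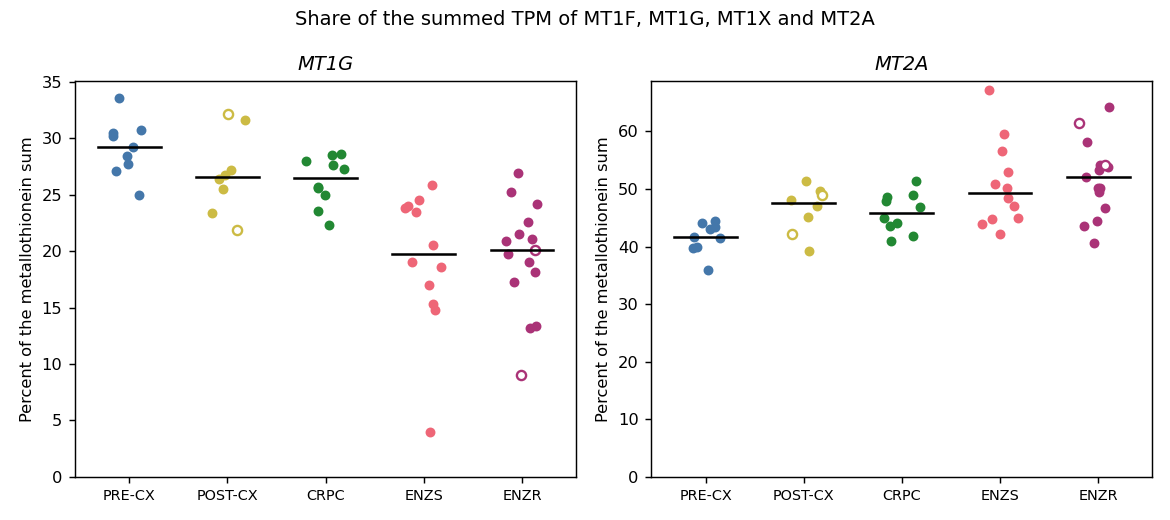
Share of MT1G and of MT2A in the summed TPM of MT1F, MT1G, MT1X and MT2A within each tumour, by group. Bars are group medians, and open circles are the 4 tumours with the lowest human TPM total. MT1G medians are 29.3% in PRE-CX, 19.8% in ENZS and 20.1% in ENZR tumours, and MT2A medians are 41.6%, 49.3% and 52.1%.

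Within groups the metallothioneins moved together. Relations of MT2A with 7 measures were computed in each of the 5 groups, 35 in all, on log2(TPM + 1) and with permutation tests adjusted over the 35. With MT1G, Pearson's r was 0.94 in PRE-CX (n = 9, Spearman's rho = 0.93, exact p = 0.000165, adjusted p = 0.00145) and 0.97 in POST-CX tumours (n = 8, rho = 0.98, exact p = 0.000149, adjusted p = 0.00145). It was 0.93 in CRPC (rho = 0.93, permutation p = 6e-05), 0.84 in ENZS (rho = 0.90, permutation p = 0.0005) and 0.95 in ENZR tumours (rho = 0.95, permutation p = 1e-05, which is the lowest value 100000 resamples allow). Leaving out the 2 tumours farthest from the median of MT1G left r between 0.82 and 0.90. Reads shared between the copies enter both sides of this relation.

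SLC30A1 followed MT2A in the ENZS tumours. There r was 0.72 (n = 12, permutation p = 0.00999, adjusted p = 0.0497) and rho 0.77 (permutation p = 0.00499, adjusted p = 0.0291). Without the 2 farthest tumours r was 0.75, and with TPM rescaled 0.76. In PRE-CX and CRPC tumours r was 0.04 and -0.03 (exact p = 0.911 and permutation p = 0.942). The r of 0.85 in POST-CX tumours (n = 8, exact p = 0.00707) and of 0.74 in ENZR tumours (permutation p = 0.0128) did not last, falling to 0.31 and 0.40 without the 2 farthest tumours and to 0.15 and 0.51 with TPM rescaled. The 2 tumours left out were mice 48 and 91 in POST-CX, both of low human total, and in ENZR mouse 87, of low human total, and mouse 21, whose human total was 93.2%. That the ENZS value differs from those of the other groups was not tested.

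The remaining measures gave no relation that lasted. Of the 30 relations with measures other than MT1G, 7 passed by r, and 1, that with SLC30A1 in ENZS tumours, passed by r, by rho and with TPM rescaled. For MTF1 r was 0.83 in POST-CX and 0.76 in ENZR tumours, and -0.16 and 0.21 without the 2 farthest tumours. Of the 15 relations with the mean of 20 hypoxia response genes, the mean of 10 glucocorticoid response genes and NR3C1, the glucocorticoid receptor, 1 passed by r, the glucocorticoid list in POST-CX tumours (r = 0.83, n = 8, exact p = 0.0155, adjusted p = 0.0498). It was -0.22 without the 2 farthest tumours and -0.02 with TPM rescaled. In ENZS tumours r was 0.57 with the hypoxia list, 0.12 with the glucocorticoid list and 0.39 with NR3C1 (n = 12, permutation p = 0.0536, 0.721 and 0.209).

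**Figure D5:**
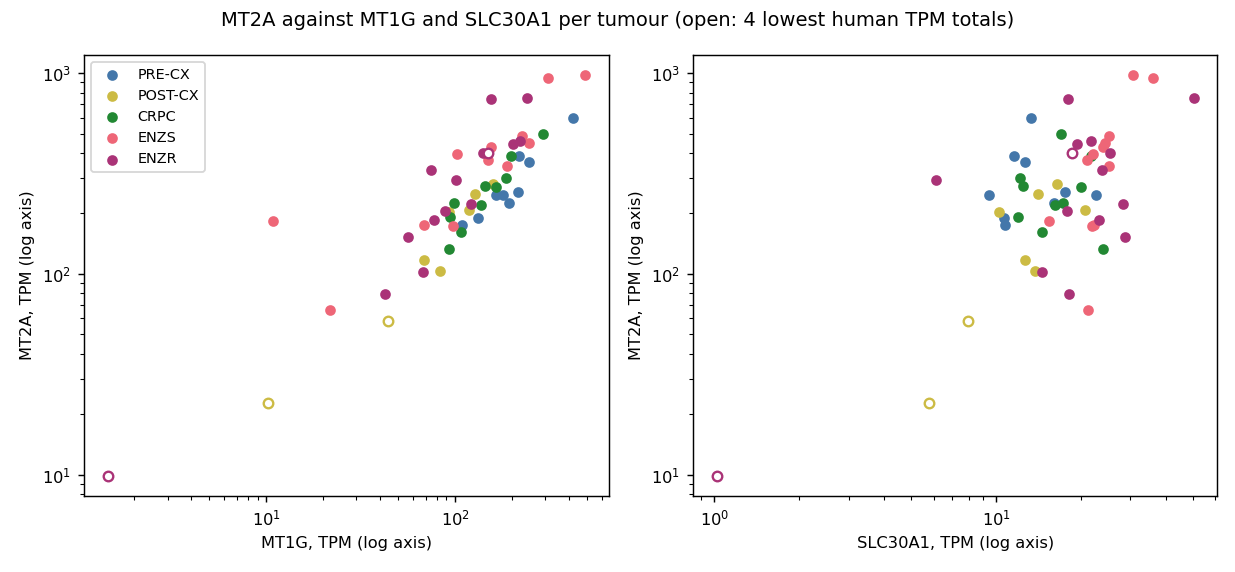
TPM of MT2A against MT1G (left) and SLC30A1 (right) in each tumour, both axes logarithmic, coloured by group. Open circles are the 4 tumours with the lowest human TPM total. Within groups r of MT2A with MT1G runs from 0.84 to 0.97, while SLC30A1 shows a looser relation, with r of 0.72 in ENZS tumours.

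Genes whose level was most like that of each member were named by Pearson's r over the 54 tumours after the group means were taken off. These values are a description, since all genes of a tumour share its library and its human total. MT2A was most like NQO1 (r = 0.87), a quinone reductase of the NRF2 oxidative stress response, then TRIB3 (0.84), SRXN1 (0.83), NQO2 (0.81) and ZFAND2A (0.80). NQO1, SRXN1 and TRIB3 are known as oxidative or integrated stress response genes, and ZFAND2A as an arsenite-inducible gene. With TPM rescaled NQO1 stayed first at 0.77, HMOX1, the heme oxygenase, came next at 0.71 and NQO2 followed at 0.70. Among members, MT2A was most like MT1X (0.97, and 0.94 rescaled).

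For SLC30A1 the leading genes included UMAD1 (r = 0.90), USP1 (0.89), FAM8A1 (0.89) and RB1CC1 (0.89), for SLC39A1 SDF4 (0.95), CPTP (0.95), BCL2L1 (0.95), LMAN2 (0.94) and TPD52L2 (0.94), and for MTF1 GCC1 (0.94), AC005261.1 (0.93), NDEL1 (0.93), SEC24B (0.93) and ZBTB21 (0.92). These values dropped to between 0.68 and 0.82 with TPM rescaled. MTF1 itself had an r of 0.56 with MT2A, which became 0.18 rescaled, while SLC30A1 and MT2A went from 0.65 to 0.42.

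Other metallothioneins added little. Of 15 further genes and pseudogenes of the family 14 were in the table, 7 were listed at 0 in all tumours and 4 passed the level filter. Only MT1DP, a pseudogene of the cluster, passed a test, at 1.32 ± 0.41 higher in ENZS than in PRE-CX (adjusted p = 0.00774), with means of 4.46 and 1.21 TPM. Being a near copy, it may hold reads of other metallothioneins.

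Other metal transporters were called in small numbers. In ENZS against PRE-CX, where 30.3% of all genes were higher, each of the 3 lists below had a smaller share. Among 10 tested zinc importers besides SLC39A1, 2 rose in ENZS against PRE-CX and the median difference was 0.23, beside 0.26 over all genes. SLC39A8, the importer ZIP8 that also carries manganese and cadmium, rose by 1.23 ± 0.36 in CRPC (adjusted p = 0.0222), 1.69 ± 0.34 in ENZS (adjusted p = 7.09e-05) and 1.49 ± 0.33 in ENZR (adjusted p = 0.000356), with means of 70.2 TPM in PRE-CX and 190 TPM in ENZS tumours. SLC39A13, a zinc transporter of the Golgi, rose by 1.15 ± 0.22 in ENZS (adjusted p = 2.95e-05). SLC39A4, the importer ZIP4, fell in ENZR (-0.68 ± 0.23, adjusted p = 0.0214). Of 6 tested zinc exporters besides SLC30A1, 1 rose in ENZS, SLC30A4 (0.97 ± 0.33, adjusted p = 0.0149), and 0 fell, with a list median of 0.22. Among 10 copper genes 2 rose in ENZS, with a median of 0.10. The copper pump ATP7A rose by 1.43 ± 0.23 (adjusted p = 1.53e-06), from 4.57 to 13.96 TPM.

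The known inducers gave mixed lists. Of 10 tested heavy metal and oxidative stress genes, 4 rose in ENZS against PRE-CX and 0 fell, beside 30.3% and 8.18% of all genes, with a median of 0.61 beside 0.26. They included NQO1 (1.06 ± 0.33, adjusted p = 0.00746) and GCLM, a subunit of the enzyme that makes glutathione's precursor (1.03 ± 0.28, adjusted p = 0.0027). Against POST-CX tumours 7 of the 10 rose in ENZS, beside 17.8% of all genes, with a median of 0.84 beside 0.31. In that comparison, chosen after the values were seen, MT1F, MT1X and MT2A also passed, but not without the 4 tumours of low human total. The hypoxia and glucocorticoid lists were higher there too, as given below. In POST-CX against PRE-CX tumours 0 of the 10 passed.

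Of 19 tested hypoxia genes, 11 fell in POST-CX against PRE-CX tumours, beside 2.67% of all genes, with a median of -1.21 beside -0.05 over all genes. Among them were NDRG1, a hypoxia and androgen target (-2.20 ± 0.46, adjusted p = 0.00112), ANKRD37 (-1.77 ± 0.37, adjusted p = 0.00128) and LDHA, lactate dehydrogenase (-1.79 ± 0.52, adjusted p = 0.0337). The list median in ENZS against PRE-CX was -0.50 beside 0.26 over all genes. There 5 genes were lower and 1 higher, beside 8.18% and 30.3% of all genes. Against POST-CX tumours 8 of the 19 rose in ENZS and 0 fell, with a median of 0.92. Over all genes 17.8% rose and 1.89% fell there, with a median of 0.31. Metallothionein values against PRE-CX, given above, were negative in POST-CX and, apart from MT1G, between -0.04 and 0.25 in ENZS. None of them passed in the main fit, and their relation to the hypoxia list across groups was not tested.

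The glucocorticoid list of 10 genes had 3 lower in POST-CX against PRE-CX, beside 2.67% of all genes, with a median of -0.50 beside -0.05. In ENZS against PRE-CX 1 was higher and 1 lower, beside 30.3% and 8.18% of all genes. The list median there was 0.07 beside 0.26. Against POST-CX tumours 4 of the 10 rose in ENZS and 0 fell, beside 17.8% and 1.89% of all genes. The list median there was 0.54 beside 0.31. FKBP5, known to answer both androgen and glucocorticoid, fell in POST-CX (-2.64 ± 0.40, adjusted p = 4.56e-06) and in ENZS (-2.91 ± 0.36, adjusted p = 6.67e-09). PER1, a clock gene with a glucocorticoid response element, fell in POST-CX (-1.52 ± 0.33, adjusted p = 0.00213) and was 1.33 ± 0.31 higher in ENZS than in POST-CX (adjusted p = 0.0018). NR3C1 itself had means of 0.45 ± 0.35 TPM in PRE-CX, 0.48 ± 0.19 in POST-CX, 0.59 ± 0.25 in CRPC, 3.93 ± 2.23 in ENZS and 3.67 ± 3.10 in ENZR tumours (SD). It reached the level filter only through the enzalutamide groups, so these levels are given as a description without a test.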

How the data were processed

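RNA-seq libraries of 54 LNCaP xenograft tumours were analysed. Per the labels and the methods of the study, the authors made strand-specific libraries of polyadenylated RNA, trimmed reads with Trim Galore 0.6.5 after FastQC 0.11.9, aligned them with STAR 2.7.2b to combined human GRCh38 and mouse GRCm38, and quantified genes with RSEM 1.3.3. The authors deposited TPM for each human gene symbol. Read totals cannot be recovered from TPM, so the depth is unknown and low values carry more counting error than the spread shows. Mouse genes were removed, so a tumour's human TPM sum varies, and a lower sum lowers every deposited value.

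Values were taken as log2(TPM + 1), and genes with at least 1 TPM in at least 8 tumours (17131) were fitted in 1 linear model of 5 group means with limma 3.58.1 in R 4.3.3, trend included, with Benjamini-Hochberg adjustment over all genes and a threshold of 0.05. Fold changes are on this scale, which understates the change of low genes. Permutation tests were 2-sided, exact where a group held fewer than 10 tumours and otherwise with 100000 resamples (Python 3.11.15). The script was tested on simulated data. Alternatives were another pseudocount, no or a stricter filter, TPM rescaled to the human total, centring on tumour medians, fewer tumours or groups, and an added fold threshold. Named genes were the members, NR3C1, and of each further list at most 3 genes with the largest passing differences of at least 1; SLC30A4, SLC39A4 and the genes most like MT2A with rescaled TPM were named after their values were seen. The members and lists were chosen with earlier results of these data known. Promoter windows are from RefSeq, GRCh38.p14. Some of the marker and most alike genes that these rules chose are not reported here.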

Additional observations from a re-analysis of the deposited data

Results flagged for a closer look

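In POST-CX tumours, the lowest MT1G value stood apart from the rest on the log2(TPM + 1) scale. Mouse 91 had 10.2 TPM against 44.4 TPM in the next tumour, a gap of 0.528 of the group's whole range. Its human TPM sum was 27.9% of 1000000, the lowest of the group. With TPM rescaled to the human total its MT1G was 36.6 and the gap fell to 0.437 of the range, which no longer stood apart. It was 1 flag in 21 groups of values tested (7 genes in the 3 groups of 8 to 10 tumours), and chance flags about 1 in 20 such groups.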

How the results depend on the processing

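The number of members passing moved with the processing in 5 of the 8 comparisons. POST-CX minus PRE-CX went from 0 members to 2 with TPM rescaled, 5 with tumours centred on their medians, 1 without POST-CX mouse 91 and ENZR mouse 87, and 3 with only the groups compared in the fit. These members were lower. Over all genes the number lower went from 457 to 989, 2306, 747 and 539, in that order. Genes tested were 17131, but 17593 with TPM rescaled, 17127 without mice 91 and 87 and 17112 without the 4 tumours of low human total. CRPC minus PRE-CX went from 0 to 2 with centring, both lower, while the number lower over all genes went from 321 to 1624. ENZS minus PRE-CX went from 1 to 0 when a log2 difference of at least 1 was also asked. ENZR minus PRE-CX went from 0 to 2 with rescaled TPM, 2 with centring, 1 without mice 91 and 87, and 1 without the 4 tumours of low human total, an alternative chosen after seeing the data. Over all genes the number higher went from 3016 to 7847, 4327, 6702 and 7351, in that order. The number lower went from 1965 to 2427, 4474, 2432 and 2367. ENZS minus CRPC went from 0 to 3 with rescaled TPM, and to 2 each without mice 91 and 87, with only the groups compared, and without the 4 tumours. Over all genes the number higher there went from 1064 to 5519, 3345, 3835 and 3831, in that order. The other 58 of the 72 counts of members stayed within 1.5 times. Fits with fewer tumours or groups estimate the spread from fewer values, and the cause of the other moves was not tested.

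SLC39A1 in ENZR minus PRE-CX turned from -0.17 to 0.067 with rescaled TPM and to 0.0069 without the 4 tumours, and r of MT2A with MTF1 and with the glucocorticoid list in POST-CX tumours turned to -0.052 and -0.017 with rescaled TPM. No paired analysis was possible because the groups share no mouse numbers. With depth unknown and human sums from 12.1% to 97.5% of 1000000, absolute levels of a tumour are limited by its human fraction.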
